A study of Mus musculus with 9 samples.

Results

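Oxidative phosphorylation was described through the 81 genes whose names mark nuclear-encoded subunits of the 5 respiratory complexes, in hepatic stellate cells from mouse livers injured with carbon tetrachloride (CCl4). Members were the rows of the deposited table named Ndufa, Ndufb, Ndufc, Ndufs or Ndufv with a digit, Sdha to Sdhd, or with a name starting in Uqcr, Cox4 to Cox8 or Atp5. Of 35024 rows, 94 had such a name. Of these, 7 pseudogene names containing -ps were left out, as were 6 genes at the lowest value of the table in more than 5 of the 9 libraries (Cox6a2, Cox6c2, Cox7b2, Cox8c, Ndufa11b and Ndufs6b). The remaining 81 comprised 38 genes named for complex I, 4 for complex II, 8 for complex III, 15 for complex IV and 16 for complex V. Of the 81, 79 lay above the lowest value in all 9 libraries. Just inside the limit were Cox7a1, at the lowest value in 2 libraries, and Cox8b, at it in 1, and just outside it were Cox7b2 and Ndufa11b, at it in 7 each. All 81 passed the filter on low values used for testing, a value above the lowest in at least 4 libraries.

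Oxidative phosphorylation passes electrons from NADH through complex I (NADH dehydrogenase), or from succinate through complex II (succinate dehydrogenase), to complex III (the cytochrome bc1 complex) and on to oxygen at complex IV (cytochrome c oxidase). The proton gradient built on the way drives complex V, the ATP synthase. Most subunits are encoded in the nucleus and imported, while a small set of membrane core subunits of complexes I, III, IV and V is encoded in mitochondrial DNA, so both genomes have to supply matching parts. Hepatic stellate cells are liver pericytes that store retinoids and become collagen-producing myofibroblasts after injury. Yap1 encodes a transcriptional coactivator restrained by the Hippo pathway that binds DNA through TEAD factors.

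The study asked how deletion of Yap1 in stellate cells alters them in the injured liver. The YAP-deleted group consisted of 4 libraries, LYT006, LYT008, LYT013 and LYT016, from LratCre+ YAP floxed mice, in which Cre is driven by the promoter of Lrat, a gene of retinoid storage that is active in stellate cells. The control group consisted of 5 libraries, LYT004, LYT005, LYT014, LYT015 and LYT017, from YAP floxed mice whose labels name no Cre. Both groups were on a C57BL/6J background, received 6 CCl4 injections 3 days apart, and gave cells 2 days after the last one, sorted on retinoid autofluorescence. The gate selects cells that still hold retinoid, no group was uninjured, and the labels state neither age nor sex. Nothing in them ties a library to its own animal, and the p-values therefore measure library-to-library spread, which may be technical.

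The labels of LYT013 and LYT014 went against their Yap1 level. Yap1 stood at 644, 649.9 and 647 normalised counts in the YAP-deleted libraries LYT006, LYT008 and LYT016, against 2910.0, 2924, 3663 and 3561 in the control libraries LYT004, LYT005, LYT015 and LYT017. The library labelled YAP-deleted LYT013 had 2537 and the library labelled control LYT014 had 620, so each lay among or near the libraries of the other label. The comparison was therefore made in the 9 libraries as labelled and in the 7 without LYT013 and LYT014. Recovered totals ran from 14052502 counts in LYT017 to 31816055 in LYT013, the deepest library. A normalised count is the count recovered from the deposited value divided by the size factor of its library. Differences are on the deposited log2-like scale, which understates changes of genes with few counts.

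Promoters of 65 of the 81 members were in the RefSeq table (build GRCm38.p6), which holds 250 bases before and 50 after each start. Letters searched on both strands were CCGGAAG for ETS factors such as GABPA, CGCATGCG for NRF1, AAGATGG for YY1, AAGGTCA for ERR, CATTCC for TEAD and CCAAT for the CCAAT box, and none of these runs contains another. The ETS letters were in 24.6% of the members' promoters (16 of 65), against 9.93% of those of all 27025 genes in the table. NRF1 letters were in 13.8% (9 of 65) against 2.07%, YY1 letters in 15.4% (10) against 7.28%, and ERR letters in 12.3% (8) against 5.38%. The CCAAT letters differed little, at 43.1% (28) against 41.1%, and the TEAD letters were in 10.8% (7) of the members' promoters, against 16.6% of all. GABPA, NRF1, YY1 and the ERR factors are known as regulators of respiratory genes, and TEAD factors as the DNA-binding partners of YAP. These shares describe letters and not binding. The 200 bases before the start follow, 5′ to 3′, with matches in capitals. They belong to the members with the largest excess in LYT013 among those with a single listed promoter (Atp5e and Uqcr11), to the one with the smallest (Sdha) and to Ndufs7, the complex I member with the smallest p.
Atp5e (chr2:174464102-174464301, minus strand): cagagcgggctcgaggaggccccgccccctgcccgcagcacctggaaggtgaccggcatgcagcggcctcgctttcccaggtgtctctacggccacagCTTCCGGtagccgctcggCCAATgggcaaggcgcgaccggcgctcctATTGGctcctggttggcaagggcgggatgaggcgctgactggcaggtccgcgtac
Uqcr11 (chr10:80406822-80407021, minus strand): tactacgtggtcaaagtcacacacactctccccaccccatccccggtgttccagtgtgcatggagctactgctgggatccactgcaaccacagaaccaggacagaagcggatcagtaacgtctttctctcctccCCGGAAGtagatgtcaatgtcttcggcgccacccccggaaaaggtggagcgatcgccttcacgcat
Sdha (chr13:74350241-74350440, minus strand): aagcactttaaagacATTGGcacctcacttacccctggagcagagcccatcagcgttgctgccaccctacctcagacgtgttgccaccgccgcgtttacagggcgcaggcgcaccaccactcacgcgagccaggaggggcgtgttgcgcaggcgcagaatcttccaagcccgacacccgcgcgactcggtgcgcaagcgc
Ndufs7 (chr10:80249249-80249448, plus strand): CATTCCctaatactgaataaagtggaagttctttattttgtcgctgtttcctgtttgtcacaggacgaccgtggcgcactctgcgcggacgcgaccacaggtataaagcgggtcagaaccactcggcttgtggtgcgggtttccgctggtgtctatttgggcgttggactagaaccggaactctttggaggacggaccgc
Atp5e had 1 ETS match and 2 CCAAT matches, Uqcr11 had 1 ETS match, Sdha 1 CCAAT match and Ndufs7 1 TEAD match, at 200 to 195 bases before the RefSeq start. The RefSeq start of Ndufs7 lies downstream of its GENCODE start. All of its printed bases, and so the TEAD match, therefore lie inside the GENCODE span of the gene, 80249121 to 80256794. Outside the printed bases, the 300-base windows behind the shares also held the ERR letters for Atp5e, the NRF1 letters for Uqcr11 and the YY1 letters for Ndufs7. Across the 65 members, the ETS letters were in 10 of the 33 with the larger excess in LYT013 and in 6 of the 32 with the smaller. The same counts were 5 and 4 for NRF1, 6 and 4 for YY1, 4 and 4 for ERR, 3 and 4 for TEAD and 12 and 16 for CCAAT, so no one direction ran through the motifs.

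In the 9 libraries as labelled, the respiratory subunits averaged higher in the YAP-deleted group, and no single member passed the test. The library mean over the 81 members was 9.64 ± 0.45 for the 4 YAP-deleted libraries and 9.34 ± 0.10 for the 5 control libraries (mean ± SD over libraries). By library it was 9.39 in LYT006, 9.44 in LYT008, 9.41 in LYT016 and 10.31 in LYT013, against 9.19 in LYT004, 9.47 in LYT005, 9.34 in LYT015, 9.37 in LYT017 and 9.33 in LYT014. One library, LYT013, stood apart from all the others, and the other YAP-deleted libraries lay inside the range of the control libraries. The fitted difference was above 0 for 78 of 81 members, with a median of 0.32, where the median over all 17203 genes tested was −0.0045. Medians by complex were 0.33 for complex I, 0.22 for complex II, 0.28 for complex III, 0.30 for complex IV and 0.32 for complex V. None of the 81 members was called in either direction at an adjusted p under 0.05 by limma (empirical Bayes with Benjamini-Hochberg adjustment over all genes tested), the share over all genes being 0% higher and 0% lower, and limma voom on the recovered counts called none either. At an unadjusted p under 0.05, 7 members were higher, against 3.53% of all genes, and 0 were lower, against 3.69%. The groups did not overlap for 3 members, all higher in YAP-deleted libraries, against 1.69% of all genes, and for none in the lower direction, against 1.15%. Without LYT013 the median difference was 0.07.

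**Figure D1:**
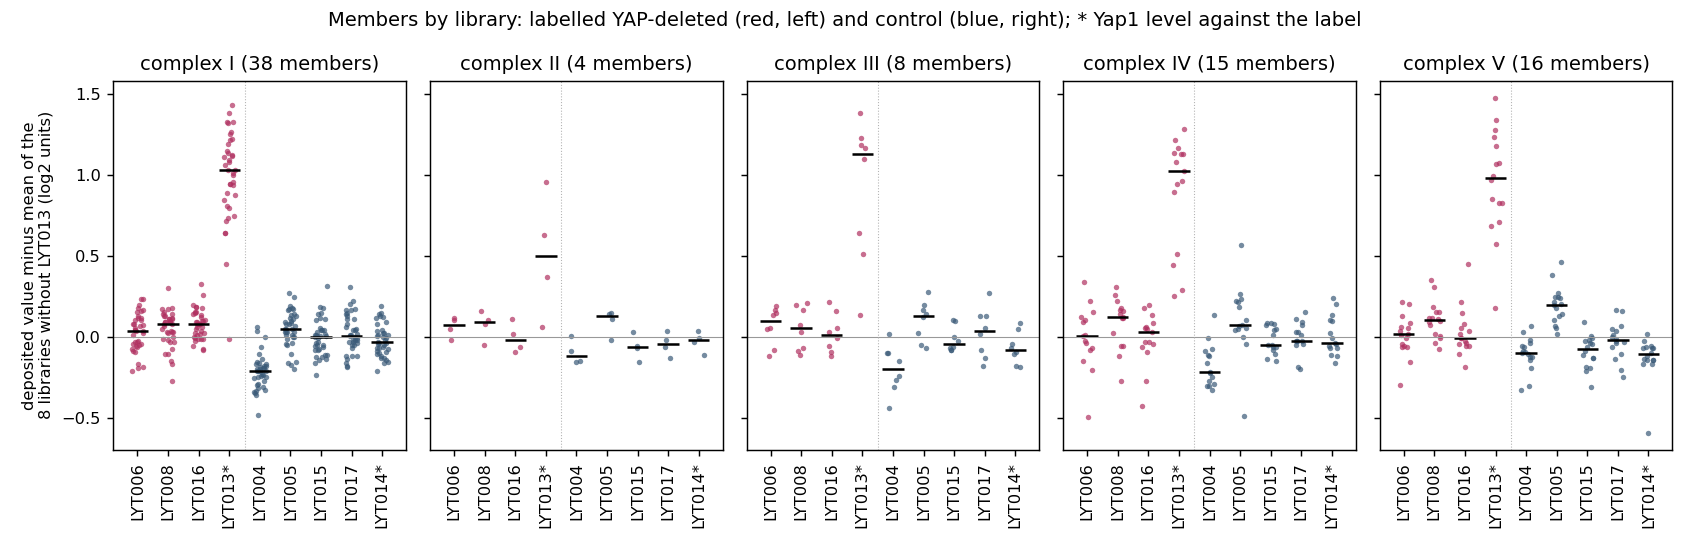
Deposited value of each member minus its mean over the 8 libraries other than LYT013 (y axis, log2 units), by library (x axis) and complex (panels); each point is 1 member, the bar is the median, and the YAP-deleted libraries stand left of the dotted line. LYT013 lies about 1 unit above the other libraries in complexes I, III, IV and V and 0.50 above in complex II, and LYT004 has the lowest median in complexes I to IV.

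The excess lay in LYT013, in every complex. It was the highest of the 9 libraries for 75 of 81 members, against 26.8% of all genes tested, and the lowest for none, against 26.0%. Its value exceeded the highest of the other 8 libraries by more than 0.5 for 62 members, against 6.27% of all genes. The median excess over the mean of the other 8 was 1.01, or 2.02-fold, where the median over all genes tested was 0.01. By complex it was 1.03 for complex I, 0.50 for complex II, 1.13 for complex III, 1.03 for complex IV and 0.98 for complex V. Counts of the 81 members together made up 0.682% of all counts in LYT013, against 0.350% in LYT004 to 0.411% in LYT005 among the other 8. LYT013 is 1 library, so this is a description with no replicate check, and its part in the labelled comparison cannot be told apart from the genotype named on its label. In bulk samples, fewer cells of a type and less RNA per cell cannot be told apart.

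The excess differed widely between members. On the deposited scale the largest, 1.48, was in Atp5e, the epsilon subunit of the ATP synthase (chromosome 2, 174461072 to 174464105 on GRCm38, minus strand), with 605, 612 and 615 normalised counts in the YAP-deleted libraries LYT006, LYT008 and LYT016 and 1719 in LYT013, against 449.7, 696, 542, 585 and 549.7 in the control libraries LYT004, LYT005, LYT015, LYT017 and LYT014. Only LYT013 departed from the rest, at 2.95-fold the mean of the other 8, while the remaining YAP-deleted libraries lay within the control range. Ndufs1, the largest iron-sulfur subunit of complex I (chromosome 1, 63143596 to 63176833, minus strand), lay close together in all 9 libraries. It had 865, 819 and 898 normalised counts in LYT006, LYT008 and LYT016 and 874 in LYT013, against 910.2, 903, 920.5, 858 and 901 in the controls, a difference of LYT013 from the other 8 of −0.01. The 6 members for which LYT013 was not the highest library were Ndufs1, Sdha, Uqcrc2, Atp5a1, Cox6b2 and Cox8b, and the first 4 of these encode large catalytic or core proteins.

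**Figure D2:**
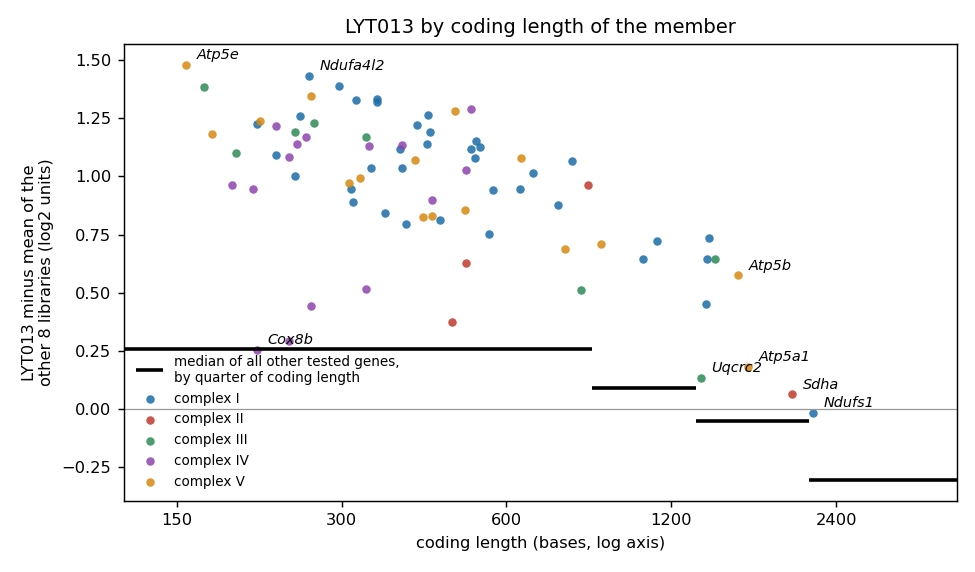
Excess of LYT013 over the mean of the other 8 libraries (y axis, log2 units) against the coding length of each member (x axis, bases, log axis), coloured by complex; black lines are the medians of all other tested genes in each of 4 equal-sized classes of coding length. Excesses run from 1.48 for Atp5e, the shortest coding sequence labelled, down to −0.01 for Ndufs1, the longest member, and the lines of the other genes step down as well.

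The excess of LYT013 went with length, among the members and among all genes. Over the 80 members with an annotated coding sequence, Pearson's r of the excess with coding length was −0.67 and Spearman's rho −0.53, a correlation across genes of the same libraries that carries no p. Over 15731 tested genes with such an annotation the values were −0.36 and −0.47. With transcript length they were −0.48 and −0.47 for the members, and −0.44 and −0.57 for the 15731 genes. Split into 4 classes of equal size by coding length, all tested genes had a median excess in LYT013 of 0.27 in the shortest class, 0.09 in the next, −0.05 in the third and −0.30 in the longest. In the other 8 libraries the same medians stayed between −0.06 and 0.05. The shortest class, up to 861 bases, held 68 of the members, whose median excess was 1.08, against 0.26 for the other genes of that class. The 8 members of the third class, among them Sdha, Uqcrc1, Uqcrc2, Atp5a1 and Atp5b, had a median excess of 0.51, against −0.05 for the other genes there. After correction of every library for the lengths and GC content of its transcripts, the median excess of the members was 0.68 in place of 1.01, and LYT013 was still the highest library for 71 of 81. This correction used transcript length and not coding length. What remained after it was not tested further.

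In complex I, the flavoprotein and iron-sulfur arm is built on core subunits that carry Ndufv and Ndufs names. Supernumerary subunits include the Ndufb and Ndufc series, most of the Ndufa series and some with Ndufv and Ndufs names, such as Ndufv3. LYT013 was highest for 37 of the 38 members named for complex I. The excess of the core subunits described here ran from −0.01 for Ndufs1 to 1.06 for Ndufs3, with 0.64 for Ndufv1, which holds the flavin. The iron-sulfur subunits Ndufv2, Ndufs8 and Ndufs7 had 0.88, 0.95 and 1.01, and Ndufs3, a core subunit of the same arm, had 1.06. Differences between the groups for Ndufs3, Ndufs8, Ndufv1 and Ndufv2 were 0.42, 0.37, 0.22 and 0.26 in the 9 libraries and 0.19, 0.16, 0.06 and 0.04 in the 7. The largest excess was in Ndufa4l2, a paralogue of Ndufa4 known as a hypoxia-inducible gene, with 910.2, 1160.3, 1001 and 2609 normalised counts in LYT006, LYT008, LYT016 and LYT013, against 749.9, 902, 889, 1051 and 824 in LYT004, LYT005, LYT015, LYT017 and LYT014. Again LYT013 was alone, and the other YAP-deleted libraries overlapped the controls. Ndufa4, which carries a complex I name but is now placed in complex IV, had 843, 897, 864 and 1825 in the same YAP-deleted libraries, against 764, 1014, 809.9, 912 and 963 in the controls. Ndufb4c is annotated as a processed pseudogene, and all of its 31-base runs occur in Ndufb4, so the split of counts between them is uncertain. The same caution holds for Ndufs3, Uqcrb, Cox7c, Atp5g2, Atp5h and Atp5l, of whose runs of that length 55.0% to 100% occur in transcripts of other genes.

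Complex II, which has no mitochondrial-DNA-encoded subunit and also serves the tricarboxylic acid cycle, had the smallest median excess in LYT013. Sdha, the flavoprotein that oxidises succinate (chromosome 13, 74322254 to 74350280, minus strand), had 3353, 3137, 3505 and 3394 normalised counts in LYT006, LYT008, LYT016 and LYT013, against 2906, 3204, 3315, 3327 and 3236 in LYT004, LYT005, LYT015, LYT017 and LYT014. The groups overlapped and LYT013 lay among the other libraries. Sdhb, its iron-sulfur partner, had 699, 752, 679 and 1438, against 714, 795, 676, 644 and 729.9, so that LYT013 stood at 2.02-fold the mean of the other 8 for one subunit and at 1.05-fold for the other. Sdhc and Sdhd, the membrane anchors, had excesses of 0.63 and 0.37.

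In complex III, the smallest subunit, Uqcr11, had the largest excess in LYT013 and the core protein Uqcrc2 the smallest. Uqcr11 had 529, 441, 549 and 1307 normalised counts in LYT006, LYT008, LYT016 and LYT013, against 327, 474, 505, 486 and 441 in LYT004, LYT005, LYT015, LYT017 and LYT014. Uqcrc2 had 1279, 1382, 1387 and 1492, against 1262, 1529, 1275, 1487 and 1254. LYT013 was far above every library for the first and below LYT005 for the second. Uqcrfs1, the Rieske iron-sulfur protein, had an excess of 0.51, and Uqcrc1, the other core protein, one of 0.65.

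In complex IV, whose catalytic core comes from mitochondrial DNA, the nuclear-encoded subunits surround and regulate it. Cox4i1, the regulatory subunit IV, had 1913, 2016, 1734 and 3708 normalised counts in LYT006, LYT008, LYT016 and LYT013, against 1652, 2042, 1606, 1729.5 and 1651 in LYT004, LYT005, LYT015, LYT017 and LYT014. LYT013 alone was outside the range of the controls. Cox5a and Cox5b, subunits Va and Vb, had excesses in LYT013 of 0.90 and 1.13, with differences of 0.19 and 0.28 in the 9 libraries and −0.06 and 0.03 in the 7. Cox7a2l, which helps join complexes III and IV into supercomplexes, had 3126, 2907, 2501 and 3843, against 2462, 2589, 2555, 2627 and 2665, so that LYT006 and LYT008 were above the controls along with LYT013 while LYT016 was not.

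Complex V showed the same spread. Atp5b, the catalytic beta subunit, had 6822, 7689, 7222 and 10629 normalised counts in LYT006, LYT008, LYT016 and LYT013, against 6513, 8156, 6827, 6991 and 6817 in LYT004, LYT005, LYT015, LYT017 and LYT014, an excess of 0.58. Atp5a1, the alpha subunit that forms the catalytic hexamer with it, had 5703, 5850.3, 4987 and 6106, against 5642, 6376, 4907, 4877 and 4861, with LYT005 above LYT013. Atp5c1, the gamma subunit of the central stalk, had an excess of 0.71. The proteolipid genes Atp5g1, Atp5g2 and Atp5g3, which encode the same ring subunit, had excesses of 1.07, 0.83 and 0.83.

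Without LYT013 and LYT014 the members' differences were small and mostly above 0. The library mean over the 81 was 9.41 ± 0.02 in YAP-deleted libraries (SD, n = 3) and 9.34 ± 0.11 in controls (SD, n = 4). The median difference was 0.08, against −0.01 over all genes, with 66 of 81 members above 0, where 48.6% of all genes were. By complex the medians were 0.09, 0.08, 0.12, 0.06 and 0.04 for complexes I to V. By limma no member was called, where 0.0174% of all genes were called higher and 0.0523% lower. At an unadjusted p under 0.05, 4 members were higher, against 3.26% of all genes, and none lower, against 3.03%. The groups did not overlap for 5 members, all higher in YAP-deleted libraries, against 3.84% of all genes, and for none in the lower direction, against 3.48%. Without the control library LYT004 the median was 0.02, and −0.01 for complex IV, and without LYT005 it was 0.13. LYT004 was the lowest of the 9 libraries for 54 of 81 members, against 13.6% of all genes.

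**Figure D3:**
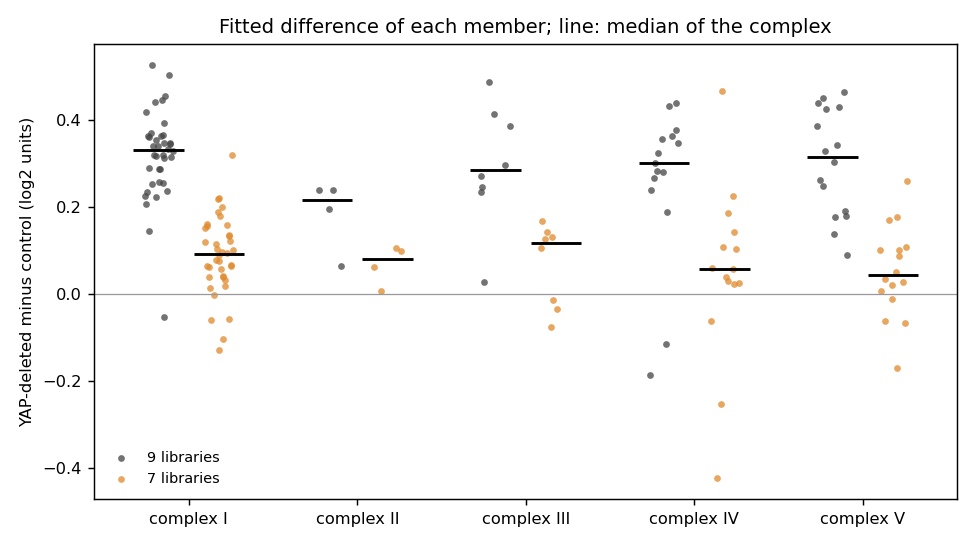
Fitted difference between YAP-deleted and control libraries for each member (y axis, log2 units) by complex (x axis), in the 9 libraries as labelled (grey) and in the 7 without LYT013 and LYT014 (orange); lines are medians. The grey medians lie between 0.22 and 0.33 and the orange ones between 0.04 and 0.12, and both fits share 7 libraries.

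The members whose groups did not overlap in the 7 libraries were Ndufs7, Ndufv3, Ndufa9, Uqcrh and Cox8b. Ndufv3 and Ndufa9 are named after their values were seen, and the others had the smallest p of their complex. With 3.84% of all genes higher without overlap, 5 of 81 members are too few to set apart from that share. Ndufs7 encodes the subunit that holds the last iron-sulfur cluster before ubiquinone (chromosome 10, 80249121 to 80256794, plus strand). It had 541, 516 and 508 normalised counts in LYT006, LYT008 and LYT016, against 357, 482, 405 and 389 in LYT004, LYT005, LYT015 and LYT017, and LYT013 had 971 and LYT014 440.2. LYT013, high in Yap1, was the highest library, and LYT014, low in Yap1, lay among the other controls. By label, and not by Yap1 level, Ndufs7 had all YAP-deleted libraries above all controls, in 9 libraries as in 7. Its difference was 0.51 ± 0.18 in the 9 libraries (SE; limma adjusted p = 0.649) and 0.32 ± 0.11 in the 7 (SE; limma adjusted p = 0.665). Within library codes 13 to 17 the difference as labelled was 0.70, and without LYT013 and LYT014 it was 0.31 both there and within codes 4 to 8.

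Ndufv3, an accessory subunit of the flavoprotein arm, had 724, 749.7 and 708 normalised counts in LYT006, LYT008 and LYT016, against 629, 663, 550.0 and 625 in the 4 controls, with 1134 in LYT013 and 633 in LYT014. Ndufa9, a supernumerary subunit next to the quinone site, had 638, 642 and 661, against 501, 610.1, 556 and 529, with 1008 and 588. For Ndufv3 and Ndufa9, LYT013, high in Yap1, was the highest library, and LYT014, low in Yap1, lay among the other controls. By label, and not by Yap1 level, both genes had every YAP-deleted library above every control, also with LYT013 and LYT014. Their differences in the 7 libraries were 0.22 ± 0.09 and 0.22 ± 0.09 (SE), each with a limma adjusted p of 0.762, and in the 9 libraries 0.36 ± 0.14 and 0.35 ± 0.14, each with one of 0.649. Uqcrh, the hinge protein of complex III, had 1004, 1026 and 1008, against 809.8, 935, 972 and 983, with 2356 in LYT013 and 1035 in LYT014. With all 9 libraries its groups overlapped, since LYT014 was above all 3 YAP-deleted libraries other than LYT013. Its difference in the 7 libraries was 0.13 ± 0.09 (SE; limma adjusted p = 0.858), and in the 9 libraries 0.39 ± 0.23 (limma adjusted p = 0.651).

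Cox8b, a subunit form best known from heart and skeletal muscle, rested on very few reads. It had 10.4, 7.68 and 5.86 normalised counts in LYT006, LYT008 and LYT016, against 1.07, 0, 2.84 and 1.35 in LYT004, LYT005, LYT015 and LYT017, with 8.4 in LYT013 and 8.05 in LYT014. It was the only one of these members for which LYT013 lay among the other YAP-deleted libraries and LYT014, the control-labelled library low in Yap1, lay among them too. The difference was 0.47 ± 0.13 in the 7 libraries (SE; limma adjusted p = 0.588) and 0.38 ± 0.14 in the 9 (limma adjusted p = 0.649). The remaining members under an unadjusted p of 0.05 in the 9 libraries were Atp5d, the delta subunit of the ATP synthase, Cox8a, the widespread form of Cox8b, and Atp5g1. Their differences were 0.44 ± 0.17, 0.43 ± 0.17 and 0.43 ± 0.19 in the 9 libraries and 0.26 ± 0.13, 0.23 ± 0.11 and 0.18 ± 0.10 in the 7 (SE). The smallest p of complex II was that of Sdhd, at 0.10 ± 0.09 in the 7 libraries and 0.20 ± 0.11 in the 9. That of complex III in the 9 libraries was Uqcrc1, at 0.30 ± 0.14, with 0.13 ± 0.10 in the 7.

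**Figure D4:**
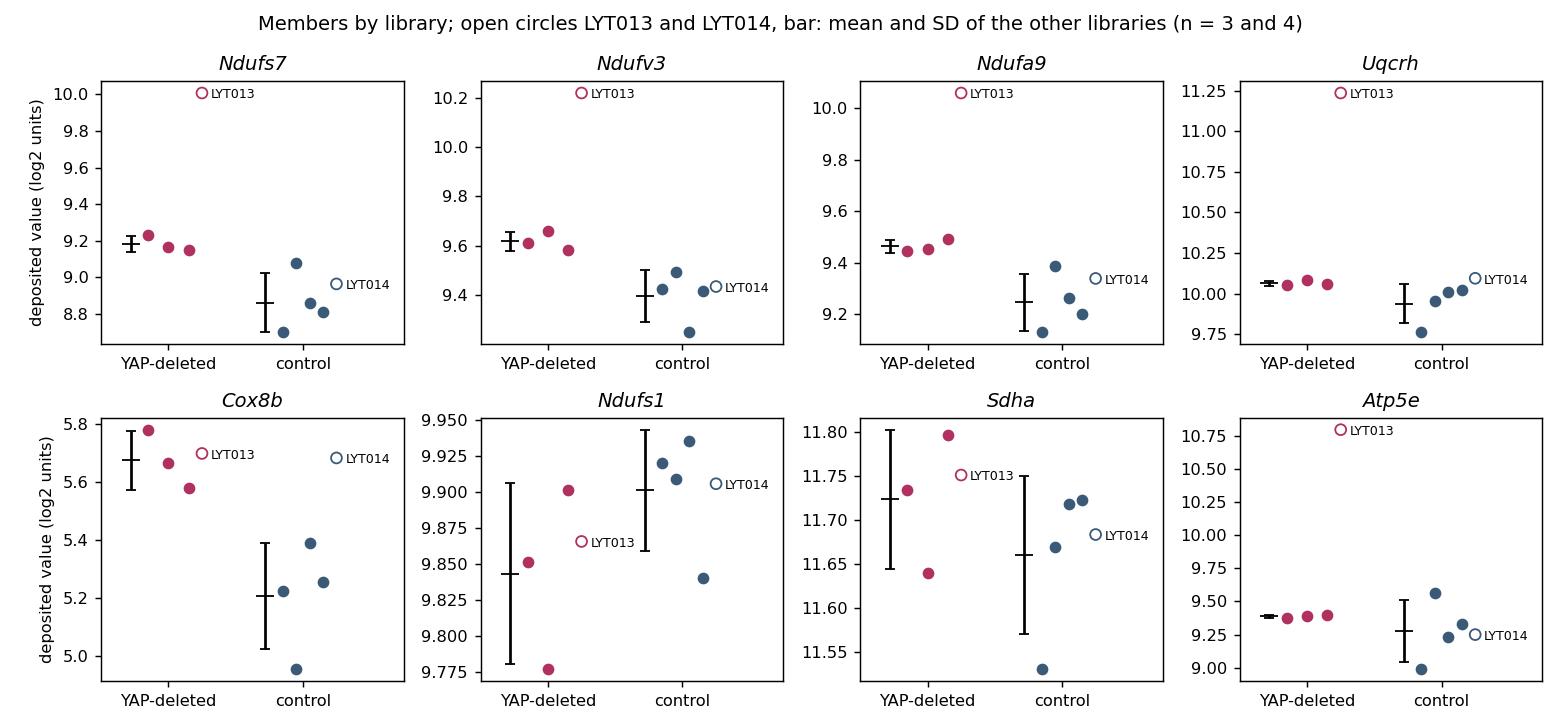
Deposited values (y axis, log2 units, a separate scale in each panel) of 8 members in YAP-deleted libraries (red, left) and control libraries (blue, right); open circles are LYT013 and LYT014, and the bar gives the mean and SD of the other 3 and 4 libraries. Ndufs7, Ndufv3, Ndufa9, Uqcrh and Cox8b have no overlap between the filled circles, whereas Ndufs1, Sdha and Atp5e do.

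LYT014 lay inside the range of the other 7 libraries (all but LYT013) for 70 of 81 members, below it for 7 and above it for 4. Of all 17203 genes tested, LYT014 was inside that range for 13583, below it for 1548 and above it for 2072. Its median deviation from the mean of those 7 libraries was −0.06, where the median over all genes tested was 0.0046. Its largest deviation was −0.68, for Atp5g2. The 2 libraries whose Yap1 level went against their labels did not move together in the respiratory genes. LYT013 had a Yap1 level near, though below, those of the controls LYT004, LYT005, LYT015 and LYT017, and the highest respiratory transcripts. LYT014 had a Yap1 level near those of the YAP-deleted libraries other than LYT013, and respiratory transcripts like those of the rest.

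Across libraries the members moved together mainly through LYT013. Over the 9 libraries the median Pearson's r of a member with the mean of the other 80 was 0.96, and 62 of 81 exceeded 0.9. Over the 8 libraries without LYT013 the median was 0.65 and 6 exceeded 0.9. Ndufs1 had the lowest value in both, −0.20 and −0.45. These correlations share libraries and depth and are given as a description.

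Among the subunits with tissue-specific forms, the widespread form was the more abundant one in these stellate cells. Levels per length are given in TPM, as means ± SD over the 9 libraries. TPM is the count per kilobase of transcript, scaled to the same sum in every library. Cox4i1 averaged 347 ± 72.7 and Cox4i2, a form known from lung and linked to low oxygen, 15.1 ± 7.81. Cox6b1 averaged 224 ± 58.9 and Cox6b2, known from testis, 7.15 ± 3.72. Cox7a2 averaged 125 ± 33.4 and its muscle form Cox7a1 0.619 ± 0.491. Cox8a averaged 321 ± 63.4 and Cox8b 1.81 ± 1.35. Cox6a1 averaged 339.9 ± 82.3, while its muscle form Cox6a2 was at the lowest value in 8 libraries. Ndufa4 averaged 209 ± 43.8 and Ndufa4l2 153 ± 56.0, with overlapping spreads over libraries. Both genes were measured in the same libraries, so this overlap does not compare them within a library. Atp5g3 averaged 238 ± 34.3, Atp5g2 48.2 ± 15.6 and Atp5g1 17.2 ± 4.14, where the long annotated transcript of Atp5g1 lowers its value. Among the members named for complexes I to V, the most abundant per length were Ndufa4, Sdha, Uqcrh, Cox6c and Atp5b, at 209, 148, 264, 396 and 512. Ndufa4 is now placed in complex IV, and Ndufa7, at 205, was the most abundant of the others named for complex I.

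The minor forms also had their own library patterns. Cox4i2 had 52, 80.6, 71.1 and 237 normalised counts in LYT006, LYT008, LYT016 and LYT013, against 45.9, 87.3, 70.9, 52.5 and 84.5 in LYT004, LYT005, LYT015, LYT017 and LYT014, an excess in LYT013 of 1.29 that was the largest of complex IV and amounted to 3.48-fold in normalised counts. Cox6b2 had 9.25, 38.4, 10.9 and 49.2, against 32, 57.8, 29.3, 26.9 and 19.3. For Cox6b2 the groups overlapped, and its differences of −0.19 ± 0.22 in the 9 libraries and −0.42 ± 0.22 in the 7 (SE) were the lowest of all members in each fit. Cox7a1 had 2.31, 0, 0 and 4.8, against 1.07, 3.69, 1.89, 2.69 and 0.805, too few for a reading at this depth.

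The subunits encoded in mitochondrial DNA did not share the excess of LYT013. Over these 13 genes the median excess in LYT013 was −0.22, with 7 below 0 and 6 above it, and LYT013 was the lowest library for 6 and the highest for 4. The largest deficits were in mt-Nd4l and mt-Atp8, which overlap mt-Nd4 and mt-Atp6 on the genome, so the split of counts within each pair is uncertain. mt-Nd4l, a membrane subunit of complex I, had 3856, 4456, 4491 and 1071 normalised counts in LYT006, LYT008, LYT016 and LYT013, against 4684, 5253, 4524, 3979 and 4108 in LYT004, LYT005, LYT015, LYT017 and LYT014. mt-Atp8, a small subunit of the ATP synthase, had 5645, 6191, 4903 and 1722, against 7082, 7523, 6129, 2636 and 5471. LYT013 was below all other libraries for both, and for mt-Atp8 the control library LYT017 was the next lowest. mt-Co2, a catalytic subunit of cytochrome c oxidase, ran the other way, with 33319.8, 38157, 33591 and 59713, against 32608, 40118, 34492, 32762 and 34468. Its excess in LYT013 was 0.78. mt-Nd5 and mt-Nd3, further complex I subunits, had differences of −0.37 ± 0.18 and 0.45 ± 0.36 in the 9 libraries and −0.19 ± 0.16 and 0.40 ± 0.44 in the 7 (SE). By limma 0 of the 13 were called in the 9 or the 7 libraries, with median differences of −0.04 and −0.03 and none under an unadjusted p of 0.05.

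**Figure D5:**
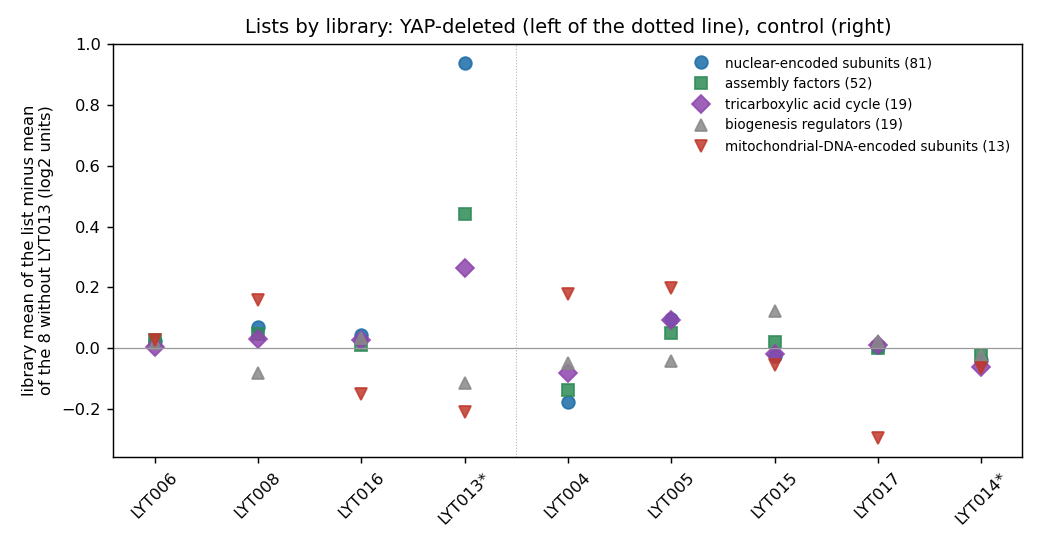
Library mean of each gene list minus its mean over the 8 libraries other than LYT013 (y axis, log2 units), by library (x axis), with YAP-deleted libraries left of the dotted line; the number of genes is in the legend. In LYT013 the 81 nuclear-encoded subunits lie 0.94 above, and the assembly factors and the tricarboxylic acid cycle are above 0, whereas the mitochondrial-DNA-encoded subunits are below 0.

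Other genes of the pathway were in part also high in LYT013, and none was called. Of the 52 tested assembly factors, which build the complexes without being part of them, LYT013 was highest for 39, with a median excess of 0.45. Median differences were 0.16 in the 9 libraries and 0.05 in the 7, with 4 and 1 genes under an unadjusted p of 0.05. Over all genes that p was reached by 3.53% higher and 3.69% lower in the 9 libraries, and by 3.26% higher and 3.03% lower in the 7, so these counts lie near the background. Ndufaf8, a complex I assembly factor, had the smallest p of that list, with a difference of 0.39 ± 0.11 in the 7 libraries and 0.45 ± 0.12 in the 9 (SE; limma adjusted p = 0.605 and 0.649). The ATP synthase factors Fmc1 and Atpaf2 came next, at 0.31 ± 0.14 and 0.21 ± 0.10 in the 7 libraries and 0.39 ± 0.17 and 0.29 ± 0.12 in the 9. Of the 8 subunits and electron carriers outside the name rule, LYT013 was highest for 7, with a median excess of 0.73, and median differences were 0.27 and 0.05. Etfa and Etfdh, which feed electrons from fatty acid oxidation to ubiquinone, had −0.24 ± 0.09 and −0.12 ± 0.07 in the 7 libraries and −0.08 ± 0.15 and −0.10 ± 0.09 in the 9 (SE). Etfb, the partner of Etfa, had 0.04 ± 0.12 in the 7 and 0.38 ± 0.25 in the 9, so the partners differed in sign. Cyc1, the cytochrome c1 subunit of complex III, had 0.19 ± 0.10 in the 7 and 0.33 ± 0.12 in the 9.

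The 19 tricarboxylic acid cycle genes had a median excess in LYT013 of 0.19, with LYT013 highest for 10, and median differences of 0.09 and 0.01. Their smallest p in the 7 libraries belonged to Mpc2, a pyruvate carrier subunit (0.16 ± 0.10), Idh3b, a subunit of isocitrate dehydrogenase (0.14 ± 0.09), and Pdha1, a subunit of pyruvate dehydrogenase (−0.11 ± 0.07). In the 9 libraries these had 0.36 ± 0.18, 0.19 ± 0.11 and −0.10 ± 0.08. The 19 regulators of mitochondrial biogenesis had a median excess of 0.03, with LYT013 highest for 3 and lowest for 6. Esrra, the nuclear receptor ERRα, had a difference of 0.31 ± 0.10 in the 7 libraries and 0.37 ± 0.12 in the 9 (SE; limma adjusted p = 0.674 and 0.649). Polrmt, the mitochondrial RNA polymerase, had 0.28 ± 0.10, and Tfb1m, a mitochondrial rRNA methyltransferase, −0.25 ± 0.14, both in the 7, with 0.24 ± 0.11 and −0.13 ± 0.15 in the 9. In each fit 2 of the 19 regulators and 0 of the 19 tricarboxylic acid cycle genes were under an unadjusted p of 0.05 by limma, counts too small to set apart from the shares over all genes given for the assembly factors.

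In LYT013 the summed stellate cell markers were below, and the summed hepatocyte markers above, those of all other libraries. The sums of endothelial, macrophage and cycling cell markers lay inside their range, for endothelial markers only through LYT014. The 16 stellate cell markers summed to 5.36% of its counts, against 6.10% to 7.70% in the other 8 libraries, a sum in which abundant genes weigh more. The single markers were mixed. LYT013 was lowest for 5 of the 16 and highest for 3, with 10 below the mean of the other 8 and 6 above it. The 13 hepatocyte markers summed to 0.00855%, against 0.00247% to 0.00749%, with 10 of 13 above the mean of the other 8. The 11 endothelial markers summed to 0.0276%, against 0.00776% to 0.0293%, with 11 of 11 above that mean. The upper end was LYT014, and the next highest was LYT017 at 0.0206%. In LYT014 these markers had a median deviation of 1.68 from the mean of the 7 libraries without it and LYT013. The 13 macrophage markers summed to 0.00955% in LYT013, against 0.00391% to 0.0138%, with 8 of 13 above the mean of the other 8. All 10 cycling cell markers were below that mean in LYT013, with a sum of 0.00351%, against 0.00338% to 0.123%. No marker of these lists was at the lowest value of the table in LYT013. The part of these cells in the excess of the respiratory genes was not tested. In the 7 libraries, 12 of 13 macrophage, 2 of 13 hepatocyte, 8 of 16 stellate and 5 of 11 endothelial markers had a difference above 0. For cycling cell markers it was 0 of 10, with a median difference of −0.63, and no marker was called. The mean of the cycling markers was 10.2 in LYT004, 10.7 in LYT005 and 10.3 in LYT008. It was 6.96 in LYT006, 6.81 in LYT015, 6.55 in LYT016, 6.58 in LYT017, 8.65 in LYT014 and 6.44 in LYT013.

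Within ranges of library codes, whose meaning the labels do not state, the members' median difference was 0.53 among codes 13 to 17, which hold LYT013 and LYT014, and 0.105 among codes 4 to 8, which hold neither. Without these 2 libraries it was 0.05 among codes 13 to 17, where LYT016 is the lone YAP-deleted library and is assumed to vary like the controls.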

How the data were processed

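RNA of sorted stellate cells was sequenced in 9 libraries. The tools named in the submitters' processing notes are bcl2fastq (2.20), sleuth and kallisto (0.44.0), and per the labels' protocols both a poly-A and a ribosomal depletion preparation are described, without saying which library received which. The table the authors deposited holds 1 value per gene name and library, on a log2 scale that flattens at low counts, with a lowest value of 4.96. No header or label states the transformation, nor why the column of LYT013 is headed LYT013.1.

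From these values, counts were recovered by inverting the inverse hyperbolic sine form, and 100% were whole to within 0.1. Because the deposited unit is not a count, the planned count model was not run. The 17203 genes that exceeded the lowest value in 4 or more libraries were tested with limma 3.58.1 in R 4.3.3: linear model on group, trended empirical Bayes moderation, two-sided tests, Benjamini-Hochberg adjustment at 0.05. The same genes were tested in the 7 libraries. Tables were made in Python 3.11.15 with pandas 2.3.3. The procedure was tested on simulated data. Positions, lengths and GC content came from GENCODE M21 (GRCm38), 1 representative transcript per gene.

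The members, the gene lists, the rule for named genes and the omission of LYT013 and LYT014 were chosen with earlier results of these data known. The rule names core and isoform members, per complex the smallest p in each fit, the extremes of LYT013 and the most abundant per length, up to 3 genes of each other list, and Yap1; 1 gene it names is not reported here. Alternatives covered filters, scaling, transformation, moderation, weights, covariates, length and GC content, member rule and omission of libraries; fits within ranges of library codes, and the length correction without LYT013, were chosen after seeing the data. Counting error was not modelled, and depth limits precision mainly for Cox7a1, Cox8b and Cox6b2.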

Additional observations from a re-analysis of the deposited data

Results flagged for a closer look

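Values were looked at again where, in a group of 4 or 5 libraries, the gap from the highest or lowest library to the next took up more of the group's range than Dixon's critical value for that number of libraries. Chance gives this in about 1 of 20 groups, and it occurred in 26 of 94 examined, 21 of them through LYT013, so these are mostly 1 observation on 1 library.

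Among the YAP-deleted libraries LYT013 was far from the others in the library mean of all members, with a gap of 0.951 of the range, and in the means of complex I (0.948), complex II (0.841), complex III (0.950), complex IV (0.891) and complex V (0.899). The means of the assembly factors (0.918), of the carriers outside the name rule (0.901) and of the tricarboxylic acid cycle genes (0.905) showed the same gap. Single members with it were Atp5e (0.985), Uqcrh (0.975), Ndufa9 (0.925), Ndufa4 (0.922), Ndufs7 (0.904), Cox6a1 (0.889), Ndufb4 (0.889), Cox6b1 (0.881), Ndufv3 (0.880), Sdhb (0.865) and Atp5g1 (0.846). Yap1 in LYT013 had the widest gap, 0.994, and Yap1 in the control-labelled LYT014 had one of 0.867.

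Among the control libraries LYT004 was low in the mean of complex I (0.739) and in Cox7a2 (0.750) and Sdha (0.722), and LYT005 was high in Atp5g1 (0.860).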

How the results depend on the processing

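No member was called under any alternative tried in the 9 or the 7 libraries, and the smallest adjusted p among the members with the smallest p of their complex was 0.189 by limma (Atp5d in the 7 libraries with the macrophage marker mean as a covariate). The median difference in the 9 libraries stayed above 0 throughout. Leaving out 1 library gave 0.07 (without LYT013) to 0.40 (without LYT006), library weights gave 0.12, the removal of the length and GC trend 0.22, and library codes 4 to 8 gave 0.105. In the 7 libraries the same omission gave 0.02 (without LYT004) to 0.13 (without LYT005). The median of complex V within codes 4 to 8 was −0.01 in both fits, that of complex IV in the 7 libraries without LYT004 was −0.01, and the difference of Uqcrc1 in the 7 libraries changed sign within codes 13 to 17, to −0.0187 (limma adjusted p = 0.934); the cause was not tested. No paired analysis was possible because the groups share no replicate numbers.

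With the length and GC trend removed, the median excess of LYT013 was 0.68 for all members, and 0.68, 0.34, 0.74, 0.67 and 0.60 for complexes I to V; length is part of that alternative's construction. Library means gave LYT013 an excess of 0.94 for all members, and 1.00, 0.51, 0.92, 0.90 and 0.96 by complex. The library median over members, in place of the library mean, gave 0.75 for complex II, 0.69 for complex III and 1.04 for complex IV. It takes the median within each library first, unlike the median of the members' single excesses given in the results. The log2 share of counts gave 0.85 for all members, 0.35 for complex II, 0.99 for complex IV and 0.73 for complex V; abundant members weigh more in it. Over all tested genes, calls in the 7 libraries numbered 12, and 0 to 26 under the alternatives, with 26 for the macrophage covariate and 2 without LYT006. In the 9 libraries there were 0, except 1 within codes 4 to 8 and 12 without LYT013 and LYT014. Few reads limit Cox8b, whose difference in the 7 libraries was 0.47 on the deposited scale and 2.32 by limma voom.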
